A study of Homo sapiens with 4 samples.

Results

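The loci of SOD2, FTH1, FTL, SLC39A14 and HMOX1 were examined for c-Jun binding in BT549 cells, an established human triple-negative breast cancer line. Peaks belonged to a locus if their centre lay inside a fixed window on hg19. The windows ran from 160050000 to 160250000 on chromosome 6 for SOD2, from 61680000 to 61830000 on chromosome 11 for FTH1, and from 49420000 to 49520000 on chromosome 19 for FTL. They ran from 22180000 to 22330000 on chromosome 8 for SLC39A14 and from 35700000 to 35850000 on chromosome 22 for HMOX1. The 5 windows covered 750 kb and held 38 of the 23721 peak calls in the 4 deposited lists. The loci were selected on the presence and score of peaks in these same lists, so calls and ranks are given as a description and carry no test.

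ChIP-seq maps a protein on the genome by sequencing the DNA that its antibody pulls out of crosslinked, sheared chromatin. The cells were starved of serum overnight. One group then received TNFalpha, an inflammatory cytokine, and the other did not, and each gave 1 c-Jun library. The time with TNFalpha is 6 h in the sample labels and 3 h in the series text. Each c-Jun library was called against normal rabbit IgG and against input chromatin, and both of these controls came from cells given TNFalpha, also for the library without it. There were 4439 peaks against IgG and 8040 against input with TNFalpha, and 3323 and 7919 without it. Read depth is unknown, and with 1 library per condition there was no replicate spread to judge a difference by. The score of a peak is the authors' own value, written by their peak caller, and it ranks peaks only inside its list.

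c-Jun belongs to AP-1, a family of dimeric transcription factors that is activated downstream of TNFalpha through the JNK kinases and binds the motif TGANTCA. SOD2 encodes the manganese superoxide dismutase of mitochondria, which turns superoxide into hydrogen peroxide and is a classical TNFalpha-induced gene. FTH1 and FTL encode the heavy and light chains of ferritin, the shell in which cells store iron. SLC39A14 encodes ZIP14, a membrane transporter that imports zinc, manganese and iron not bound to transferrin. HMOX1 encodes heme oxygenase 1, the stress-induced enzyme that breaks down heme and releases its iron.

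Promoter stretches in RefSeq (GRCh38.p14) were found for 2 of the 5 genes, 4 for SOD2 and 1 for FTL. An example of each is printed, because one locus held the highest scoring peak found only with TNFalpha and the other held no peak. They are the 250 bases before the start site, from chr6:159693242-159693491 on the minus strand and chr19:48965059-48965308 on the plus strand. These positions are on another build than the peaks and were not placed against them.
SOD2: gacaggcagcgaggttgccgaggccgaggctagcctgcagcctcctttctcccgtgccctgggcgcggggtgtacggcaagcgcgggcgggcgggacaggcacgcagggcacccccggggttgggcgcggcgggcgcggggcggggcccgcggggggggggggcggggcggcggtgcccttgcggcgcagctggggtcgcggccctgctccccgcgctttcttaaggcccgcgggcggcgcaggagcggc
FTL: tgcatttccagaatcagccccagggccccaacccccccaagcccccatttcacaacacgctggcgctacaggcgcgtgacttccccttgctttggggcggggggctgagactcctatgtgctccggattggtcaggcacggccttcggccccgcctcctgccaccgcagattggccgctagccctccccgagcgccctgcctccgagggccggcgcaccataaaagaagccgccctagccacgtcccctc
Both strands of all 5 stretches were searched for TGANTCA, for the cyclic AMP response element TGACGTCA, for the antioxidant response element core TGACNNNGC and for the NF-kB consensus. Matches of different motifs could have overlapped in part. There were 0 matches, so no base is capitalised. Among 35116 promoter stretches of this length, 6.57% held TGANTCA, 1.65% held TGACGTCA, 10.9% held TGACNNNGC and 9.96% held the NF-kB consensus. The absence of these letters from the stretches says nothing about sites elsewhere in the loci, and the sequence under the peaks was not analysed here.

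With TNFalpha, c-Jun peaks lay in 4 of the 5 windows, and most of them had no counterpart in the library without it. A peak called against both IgG and input of its library is here a both-control peak, and it is shared if it overlaps by at least 1 bp any peak in either list of the other library. The windows held 14 both-control peaks with TNFalpha and 2 without it. Of the 14, 11 were found only with TNFalpha (78.6%, exact 95% Clopper-Pearson interval 49.2 to 95.3%, counting error only), and both peaks without TNFalpha were shared. Genome-wide, the library with TNFalpha had 4159 both-control peaks, 35.9% of them without a counterpart, and the other library had 3086, with 20.1%. The windows were picked for such peaks, and the interval treats neighbouring peaks as independent, so nothing is read from the distance between these shares. In the IgG-controlled lists alone, 12 of 15 window peaks with TNFalpha (list-wide 49.7%) and 0 of 3 without it (32.6%) had no counterpart. In the input-controlled lists alone the counts were 15 of 17 (49.1%) and 1 of 3 (47.8%). By locus, the peaks found only with TNFalpha numbered 4 of 4 at FTH1, 4 of 5 at SLC39A14, 2 of 4 at SOD2, 1 of 1 at HMOX1 and 0 of 0 at FTL.

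**Figure D1:**
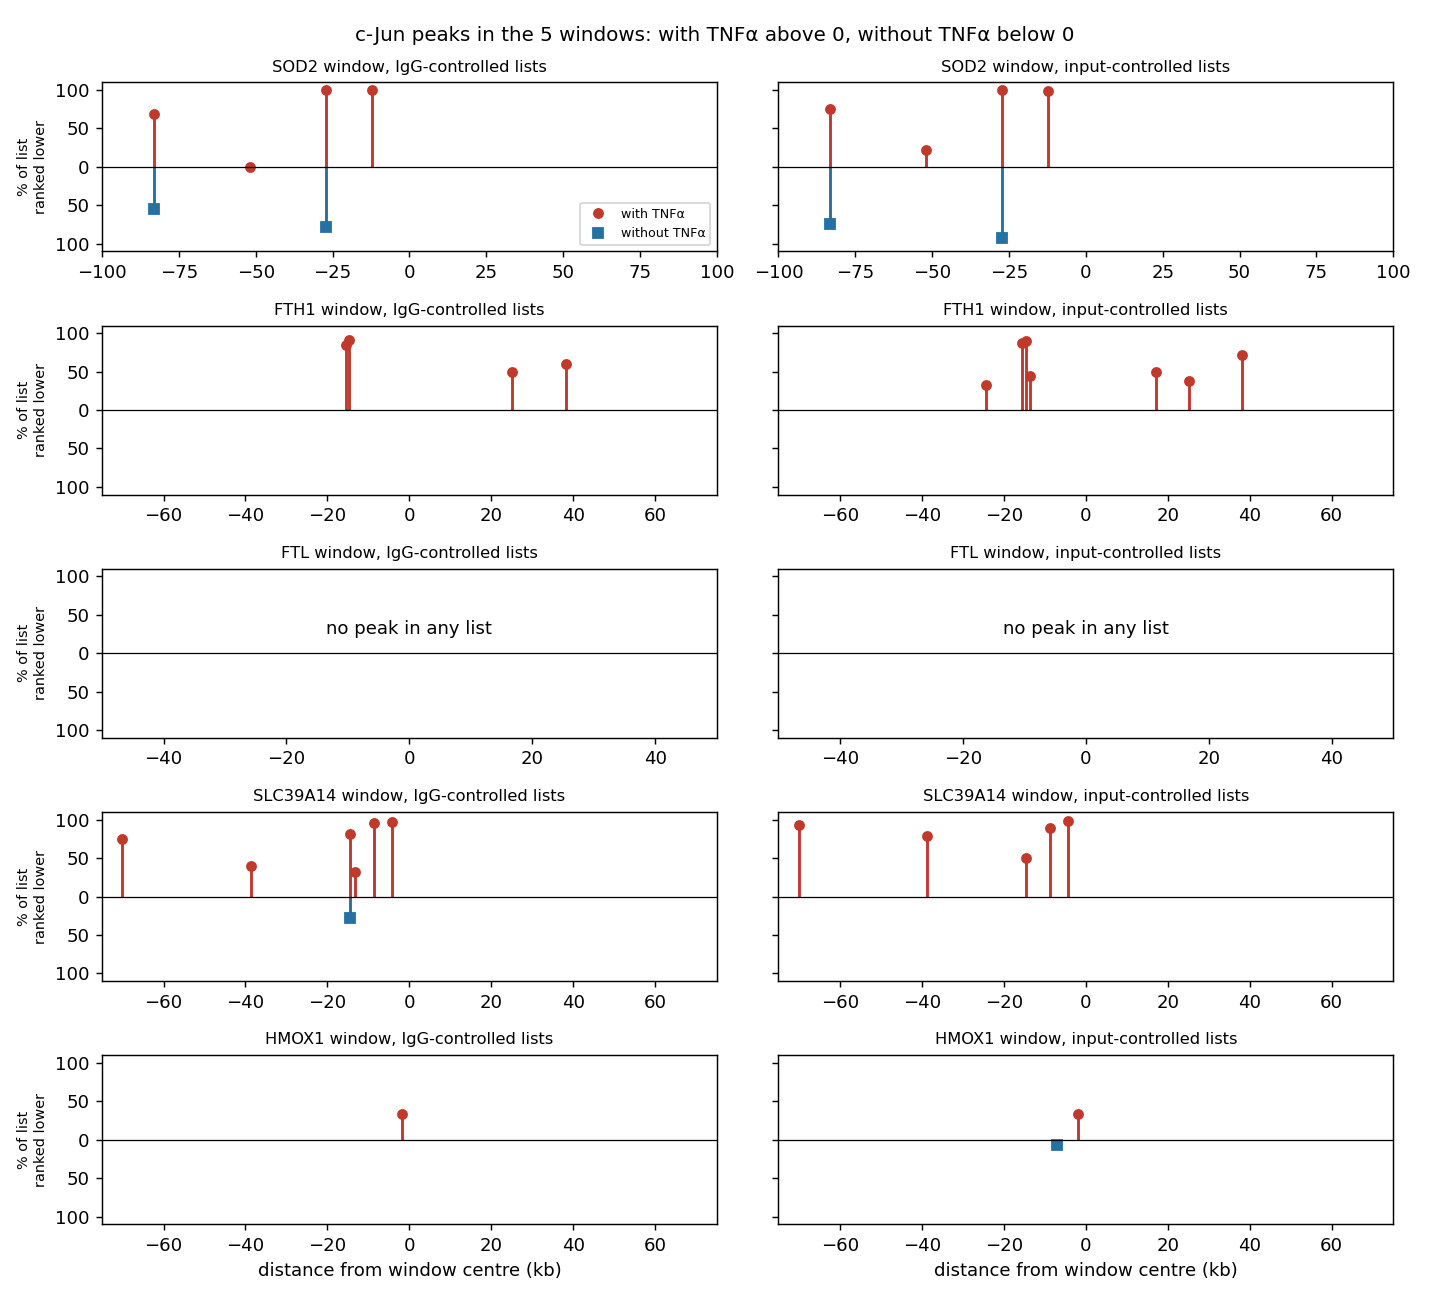
Peaks by distance from the window centre (kb) for each locus (rows) in the IgG-controlled (left) and input-controlled (right) lists. Height is the percentage of the list ranked lower by score, drawn upward for the library with TNFalpha (circles) and downward for the library without it (squares). FTH1 has peaks only above the line, FTL has none, and SOD2 has 2 positions with a peak in both libraries.

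At SOD2, c-Jun peaks were called at 2 positions in both libraries and at 2 more only with TNFalpha. The strongest shared peak, on chromosome 6 from 160122428 to 160123107, scored 476 against IgG (rank 20 of 4439) and 938 against input (rank 12 of 8040) with TNFalpha. Without TNFalpha the same site, called from 160122432 to 160123062, scored 122 against IgG (rank 738 of 3323) and 243 against input (rank 540 of 7919). With TNFalpha the peak reached 4 bp farther to the left and 45 bp farther to the right, so the site was called in nearly the same place in both libraries. It stood within the top 0.451% of the IgG-controlled list with TNFalpha and the top 22.2% of that without it, and ranks from lists of different length show no change.

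The neighbouring peak from 160137080 to 160138294 was called only with TNFalpha, at 468 against IgG (rank 21) and 658 against input (rank 66). It was 1215 bp wide, the 27th widest of the 4159 both-control peaks with TNFalpha. It lay 13.97 kb to the right of the strong shared peak, which is the next peak of its library. These peaks, present and absent without TNFalpha, held adjacent ranks, 20 and 21, in the IgG-controlled list with TNFalpha. No peak of the library without TNFalpha lay closer to the second than 14.02 kb, and 69.3% of the 1493 peaks found only with TNFalpha were farther than this from such a peak.

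The other positions at SOD2 were weaker. The shared peak from 160066590 to 160067115 scored 114 against IgG (rank 1391) and 164 against input (rank 1934) with TNFalpha. Without TNFalpha it was called from 160066635 to 160067012 and scored 83.0 (rank 1490) and 122 (rank 2080). The last peak found only with TNFalpha, from 160097880 to 160098238, scored 50.01 against IgG (rank 4438 of 4439), which is the lowest score in that list, and 62.0 against input (rank 6285). It was thus called at the lower limit of the IgG-controlled list. In gene order the protein-coding neighbours of SOD2 are FNDC1 and WTAP, the latter a subunit of the RNA m6A methyltransferase complex, and no peak was assigned to any of these genes.

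At FTH1, peaks were called only with TNFalpha, and the library without it had no peak in the window in either list. The highest scoring were a close pair on chromosome 11. The peak from 61739058 to 61739892 scored 164 against IgG (rank 656) and 240 against input (rank 994). The peak from 61740047 to 61740558 scored 201 against IgG (rank 414) and 258 against input (rank 857). The pair was separated by 154 bp. Among 4133 pairs of neighbouring both-control peaks with TNFalpha, 96 were at most this far apart and 249 were under 1000 bp apart. An input-only peak from 61741116 to 61741535, with a score of 86.7, followed 557 bp to the right, so that 3 calls lay within a few kilobases. An enhancer upstream of FTH1 with AP-1-like antioxidant response motifs is known from earlier work, and whether these peaks lie on it was not tested.

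The other both-control peaks lay to the right in the FTH1 window. That from 61779845 to 61780433 scored 84.5 against IgG (rank 2264) and 78.4 against input (rank 4958), in the lower part of both lists. That from 61792925 to 61793292 scored 100.5 against IgG (rank 1754) and 145 against input (rank 2309). Input-only peaks at 61730388 to 61730726 and 61771986 to 61772332 had scores of 72.0 and 94.5, which brought the distinct peaks with TNFalpha to 7. The nearest peak without TNFalpha, in either list, was 593 to 646 kb from the 4 both-control peaks. The median of this distance over the 1493 peaks of the class was 37.5 kb, and 58 to 69 of them were farther away than these 4. All 4 distances ran to the same peak, and the surroundings of the window were also empty with TNFalpha. The nearest outside centres with TNFalpha lay 534 kb beyond the left edge (against input) and 560 kb beyond the right edge (against IgG). Chromosome 11 as a whole had 102 both-control peaks with TNFalpha (0.759 per Mb), of which these 4 were a part. The neighbours of FTH1 in gene order are BEST1, a chloride channel gene, and INCENP, a gene of the chromosomal passenger complex.

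FTL, the gene of the other ferritin chain, had no c-Jun peak in its window in any of the 4 lists. With TNFalpha the nearest peaks had their centres 591 kb to the left and 624 kb to the right of the window, in both lists. Without TNFalpha, weak IgG-controlled peaks lay 342 kb to the left (score 51.8) and 102 kb to the right (score 50.6). At the density of chromosome 19 with TNFalpha (0.905 both-control peaks per Mb), a stretch as long as the window of 100 kb holds 0.0905 peaks on average, so an empty window is the usual case there. The corresponding average was 0.114 for the FTH1 window, which held 4. That window was picked for its peaks, so nothing is read from this difference.

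At SLC39A14, 5 both-control peaks were called with TNFalpha and none without it, and the widest and highest scoring lay close together on chromosome 8. The peak from 22249757 to 22251513 scored 290 against IgG (rank 151) and 561 against input (rank 108), and at 1757 bp it was the 4th widest both-control peak with TNFalpha. The peak from 22245793 to 22246764, 2.99 kb to its left, was 972 bp wide and scored 276 against IgG (rank 181) and 258 against input (rank 864). Ranked by IgG-controlled score among the 1493 peaks found only with TNFalpha, they stood at 7 and 11.

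The site to their left was the one position at SLC39A14 seen in both libraries. With TNFalpha it was called from 22240241 to 22240692, with 148 against IgG (rank 828) and 94.7 against input (rank 4006). Without TNFalpha it was called from 22240383 to 22240644 against IgG only, with a score of 62.8 (rank 2377 of 3323), and no input-controlled peak of that library lay nearer than 962 kb. Its status as shared therefore rests on a single call in 1 of the 2 lists without TNFalpha. An IgG-only peak with TNFalpha from 22241521 to 22241903 had a score of 68.95.

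The remaining SLC39A14 peaks, both found only with TNFalpha, ranked higher against input than against IgG. That from 22184604 to 22185350 scored 129 against IgG (rank 1111 of 4439) and 326 against input (rank 518 of 8040). That from 22216115 to 22216589 scored 75.3 (rank 2703, top 60.9%) and 176 (rank 1730, top 21.5%). The neighbouring genes in order are PIWIL2, of the piRNA pathway, and PPP3CC, a catalytic subunit of calcineurin.

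At HMOX1, each library had a single weak peak, and these were at different positions. With TNFalpha the peak lay on chromosome 22 from 35772850 to 35773323 and scored 69.1 against IgG (rank 2963, top 66.7%) and 72.8 against input (rank 5347, top 66.5%). Without TNFalpha a peak from 35767918 to 35768132 was called against input only, with a score of 51.6 (rank 7336 of 7919). The peaks were 4.72 kb apart and the second had no IgG-controlled call, so it was no both-control peak. A stronger peak lay just beyond the window edge. This peak of the library with TNFalpha, from 35697436 to 35697846, scored 110.7 against IgG and 92.8 against input, and its centre was 2.36 kb outside the window. At SOD2 the nearest peak outside, from 160015702 to 160016703, scored 254 against IgG with TNFalpha, with its centre 33.8 kb beyond the edge. It had a counterpart without TNFalpha from 160016292 to 160016599 (score 100.2). The other edges had no IgG-controlled peak with TNFalpha within 100 kb.

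As a set, the window peaks had higher scores and were wider than the both-control peaks with TNFalpha at large. The 14 had a median IgG-controlled score of 139 and a median width of 557.5 bp, against 89.8 and 434 bp over all 4159. The 11 found only with TNFalpha had medians of 129 and 589 bp, against 74.9 and 394 bp over all 1493 such peaks. Scores of the 11 ran from 50.01 to 468, which spans that class from its lowest value to its highest. In the highest scoring 10% of both-control peaks with TNFalpha (415 peaks), 11.8% were found only with it. The windows supplied 5 of these 415 peaks, 4 of them found only with TNFalpha: 1 at SOD2, 1 at FTH1 and 2 at SLC39A14. Presence and scores of peaks chose these loci, so the higher medians are a description. For the same reason nothing is read from 4 of 5 beside 11.8%.

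**Figure D2:**
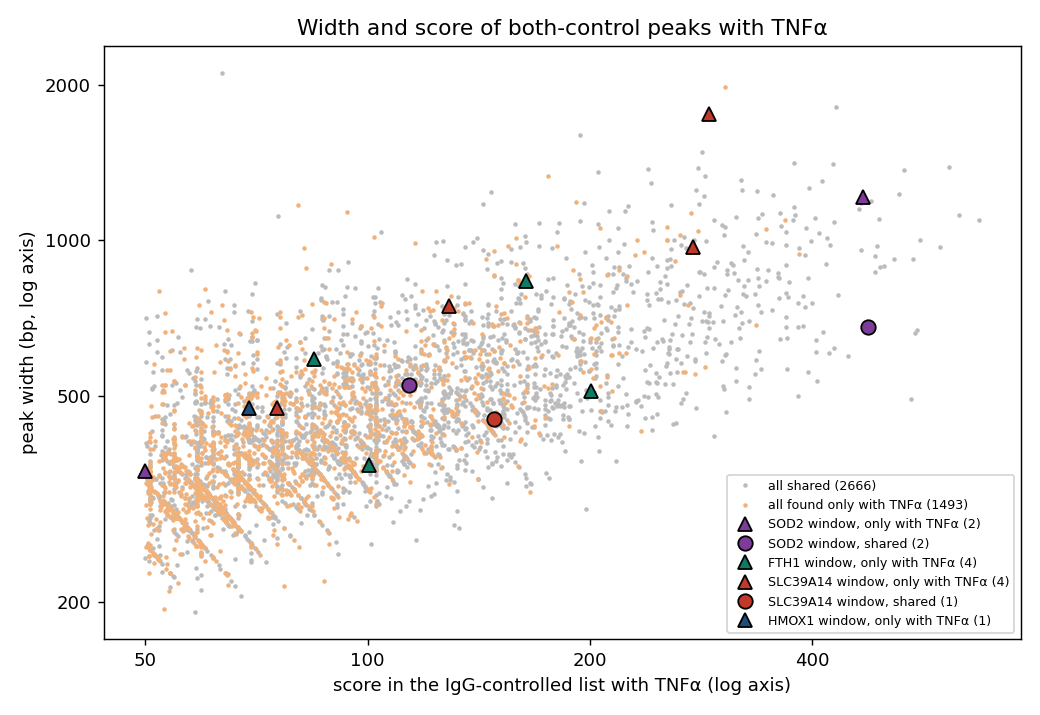
Peak width (bp, log axis) against score in the IgG-controlled list with TNFalpha (log axis) for all 4159 both-control peaks, with the 14 window peaks as large symbols coloured by locus. Triangles are peaks found only with TNFalpha and large circles are shared peaks. The SLC39A14 peak of 1757 bp and the SOD2 peak of 1215 bp lie among the widest, and 1 SOD2 peak lies at the lowest score.

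The 3 shared positions could also be ranked in sets of equal length, because 2188 IgG-controlled peaks paired with a single peak of the other library and the reverse. Among these pairs the strong SOD2 peak ranked 683 without TNFalpha and 19 with it. The other SOD2 peak ranked 1265 and 1000, and the SLC39A14 peak ranked 1779 and 633. All 3 stood higher with TNFalpha, by 664, 265 and 1146 places, where the median difference of a pair in either direction was 405 places. In 108 of the 2188 pairs the rise was larger than at SLC39A14, in 336 it was larger than for the strong SOD2 peak, and in 697 larger than for the other. Among 3868 input-controlled pairs, the SOD2 peaks ranked 472 and 1746 without TNFalpha and 8 and 1465 with it. These rises of 464 and 281 places were both under the median difference of an input-controlled pair, 707 places, and 1195 and 1422 of the 3868 pairs rose by more. From rank 472 the strong SOD2 peak could not have risen by 707 places, so its place under that median was fixed by its starting rank. For that peak the input-controlled comparison with the median therefore cannot be set against the IgG-controlled one. At ranks 19 and 8 with TNFalpha, it had little room left to rise in either set of pairs. The numbers of pairs with a larger rise therefore depend on the starting rank. The strong SOD2 peak rose by more than the median difference against IgG, and the other SOD2 peak rose by less than it against both. With 1 library per condition, these rises have no replicate check. The shared peaks were also wider with TNFalpha, at 680 against 631 bp, 526 against 378 bp and 452 against 262 bp. Of all the IgG-controlled pairs, 64.3% were wider with TNFalpha.

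**Figure D3:**
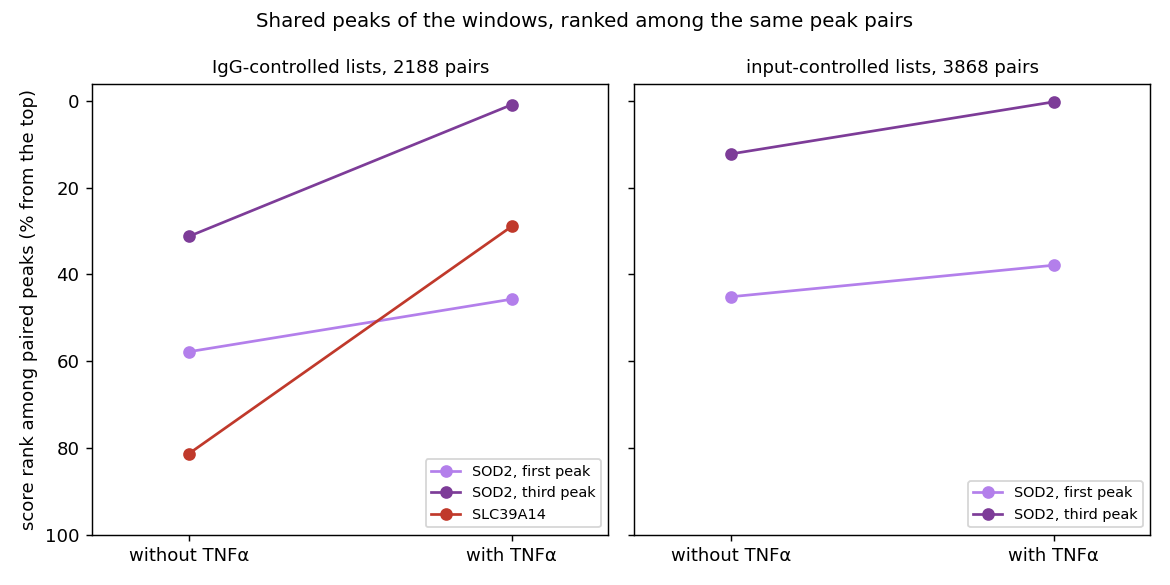
Score rank, as a percentage from the top, of the shared window peaks among the same peak pairs without and with TNFalpha, for IgG-controlled (left, 2188 pairs) and input-controlled lists (right, 3868 pairs). Lines join the values of a position in the 2 libraries. The SLC39A14 position, from 81.3% to 28.9%, appears on the left alone because it was not called against input without TNFalpha.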

How the data were processed

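c-Jun ChIP-seq of BT549 cells was analysed from 4 deposited peak lists, 2 per library. The submitters' processing notes name CASAVA 1.8, Bowtie 0.12.9 and the build hg19. Peaks of each library were called separately against IgG and against input, per the labels, and peak names begin with MACS, per the file contents. The caller's version, its threshold and how it treated duplicates were not given in the sources used here. Column 5 of each list is a score made by the authors' caller, starting near 50, of unstated scale, and the authors' scores were used only inside a list.

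Start positions were raised by 1 to give 1-based coordinates. The both-control peaks of a library took the same borders in its 2 lists. Members, loci and lists were chosen with earlier results of these data known. Every both-control peak in a window is named, as are window peaks called against 1 control. The alternatives changed the control, overlap rule, hit list, score limit, list length and window. The paired ranks, distances, densities and neighbour spacing were chosen after seeing the data. Gene order came from RefSeq (GRCh38.p14), whose coordinates were not set against the peaks, and the intended placing of peaks in genes and the wider pathway list were not run, as no hg19 annotation was used. Python 3.11.15, numpy 2.4.6, pandas 2.3.3, scipy 1.17.1 and matplotlib 3.10.9 were used. Overlaps were tested on simulated data and against bedtools 2.31.1, where 0 of 24 counts differed.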

Additional observations from a re-analysis of the deposited data

How the results depend on the processing

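No paired analysis was possible because there was only 1 c-Jun library per condition, which also means that none could be left out. The 11 peaks found only with TNFalpha became 7 of 10 when IgG-controlled peaks under the median score were dropped, as a stricter limit keeps fewer peaks. In the other 8 alternatives they numbered 11 to 15, and the share found only with TNFalpha ran from 70.0% to 88.2% over all 9. Over all peaks this share was 35.9% in the main setting. It was 49.7% with the IgG-controlled lists alone and 49.1% with the input-controlled lists alone. The share over all peaks is not given here for the other alternatives, so the range describes the picked windows only. Peaks found only without TNFalpha numbered 0, except with the input-controlled lists alone, where the HMOX1 peak called against input only made the number 1. With the input-controlled lists alone FTH1 had 7 such peaks with TNFalpha, with windows widened by 50 kb HMOX1 had 2, and above the median score HMOX1 had 0. SOD2 had 1 above the median score and with equal numbers of IgG-controlled peaks, which drop its peak at the lowest score. The median rank of the 14 window peaks stood at the top 21.8% of the IgG-controlled list and the top 16.9% of the input-controlled list. As depth is unknown, a site without a call cannot be said to be unbound.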
